A study of Homo sapiens with 6 samples.

Results

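The genes described here are the collagens, laminins and integrin subunits, with fibronectin (FN1), thrombospondin 1 (THBS1) and tenascin C (TNC), in U2OS cells after E2F7 knockdown. They were chosen by gene name: symbols of the form COL, LAM or ITG with a chain number, plus the 3 glycoproteins, listed in the tables of all 3 times. The names matched 50 genes listed at any time, of which 47 were listed at all times, among 11886 such genes in all. These 47 comprised 22 collagens, 9 laminins, 13 integrin subunits and the 3 glycoproteins. The other 3, COL4A4, ITGB4 and LAMA2, were listed at some times only. No listed gene had both libraries of a pair below 1.26 FPKM, and the higher library was at 1.43 FPKM or more for the 47. The tables of each time may thus have been filtered on low values, which the sources used here do not state.

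U2OS is an established human osteosarcoma line. All 6 libraries came from cells blocked with hydroxyurea, a drug that depletes deoxynucleotides, at 4 mM for 24 h, and then washed into fresh medium. Cells carrying siE2F7, an siRNA against the repressor E2F7, or siNT, a non-targeting control siRNA, were taken at 0 h (G1/S transition), 3 h (S phase) and 12 h (G2/M boundary). Each arm had 1 library at each time, and the knockdown was transient and partial. The series asks which transcripts depend on E2F7 through the cell cycle.

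Collagens are triple-helical proteins that form the fibrils and sheets of the extracellular matrix. Laminins are cross-shaped trimers of an alpha, a beta and a gamma chain that lay down basement membranes. Integrins are alpha-beta dimers in the cell membrane that bind these ligands outside the cell and the actin cytoskeleton inside it. Bone-forming cells, the lineage from which osteosarcoma arises, secrete type I collagen in bulk and adhere to fibronectin in part through integrin alpha-5 beta-1.

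The siRNA target was lowered in each pair: E2F7 stood at 20.3, 29.4 and 16.6 FPKM in siNT and at 9.48, 10.6 and 5.52 FPKM in siE2F7 at 0, 3 and 12 h. FPKM is the number of fragments per unit of transcript length and of mapped fragments, so levels of different genes can be compared. The tables hold no counts, and the depth is unknown. Of 13 osteoblast lineage and mesenchymal markers, 8 were listed at all times, among them VIM (759 to 886 FPKM) and RUNX2 (2.83 to 4.6 FPKM). SP7, BGLAP, IBSP, TWIST1 and DLX5 were not listed at all times. The median log2 change of the 8 was -0.27, and 2 of them fell (25%, beside 7.13% of all genes): TNFRSF11B, a secreted decoy receptor, by 0.56 on the log2 scale (limma, adjusted p = 0.029) and ALPL, the phosphatase of mineralizing cells, by 0.37 (0.043). Leaving out the libraries of 0 h or 12 h ended both calls, and leaving out those of 3 h ended that of ALPL; the part of these markers in the results was not tested. Of 12 blood and endothelial markers only CD68 and LAPTM5 were listed at all times. Their summed level was 7.10 to 9.66 FPKM in siNT and 6.25 to 8.65 FPKM in siE2F7, and neither passed the test; their part in the results was not tested.

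In siE2F7, 4 of the 47 genes fell and 0 rose, and 43 did not pass. The genes that fell were ITGA5, the alpha subunit of the fibronectin receptor, THBS1, LAMB3, a chain of the epithelial laminin-332, and COL27A1, a fibrillar collagen of cartilage. The test was limma's, fitted to log2(FPKM + 0.1) and blocked by time, and a gene passed at a Benjamini-Hochberg adjusted p under 0.05 over all 11886 genes. Log2 changes are on that scale, siE2F7 minus siNT, a scale that makes folds of weakly expressed genes look smaller. The 4 genes are 8.51% of the 47, beside 7.13% of all genes tested that fell and 6.76% that rose, so the count of calls was near the background. With 1 library per arm and time, p-values rest on how the difference between the arms varies from time to time in these 6 libraries. For each gene, limma weighed its own spread (2 residual degrees of freedom) with that of genes of like level (5.41 prior degrees of freedom). The spread between times may be technical or a change of the effect with time, which the fit cannot tell apart. A gap that grew with time widened it. The pairs behind each SE are the times, and they are not replicates of 1 condition. Each SE comes from the limma fit, and it can be smaller or larger than the gene's own pairs alone would give.

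Smaller differences leaned the same way. Of the 47 genes, 36 had a log2 change below 0 (76.6%, beside 55.9% of all genes), and the median was -0.13, beside -0.03 over all genes. Values were lower in siE2F7 at all 3 times for 24 of the 47 (51.1%, beside 28.6% of all genes) and higher at all 3 times for 5 (10.6%, beside 22.8%). At an unadjusted p under 0.05 by limma, 17 were lower (36.2%, beside 16.7%) and 2 were higher (4.26%, beside 13.5%). All 3 siE2F7 values lay below all 3 siNT values for 10 genes (21.3%, beside 8.76%), and above them only for COL5A3 (2.13%, beside 6.88%). These shares are a description, since related genes of 1 set of libraries are not independent.

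**Figure D1:**
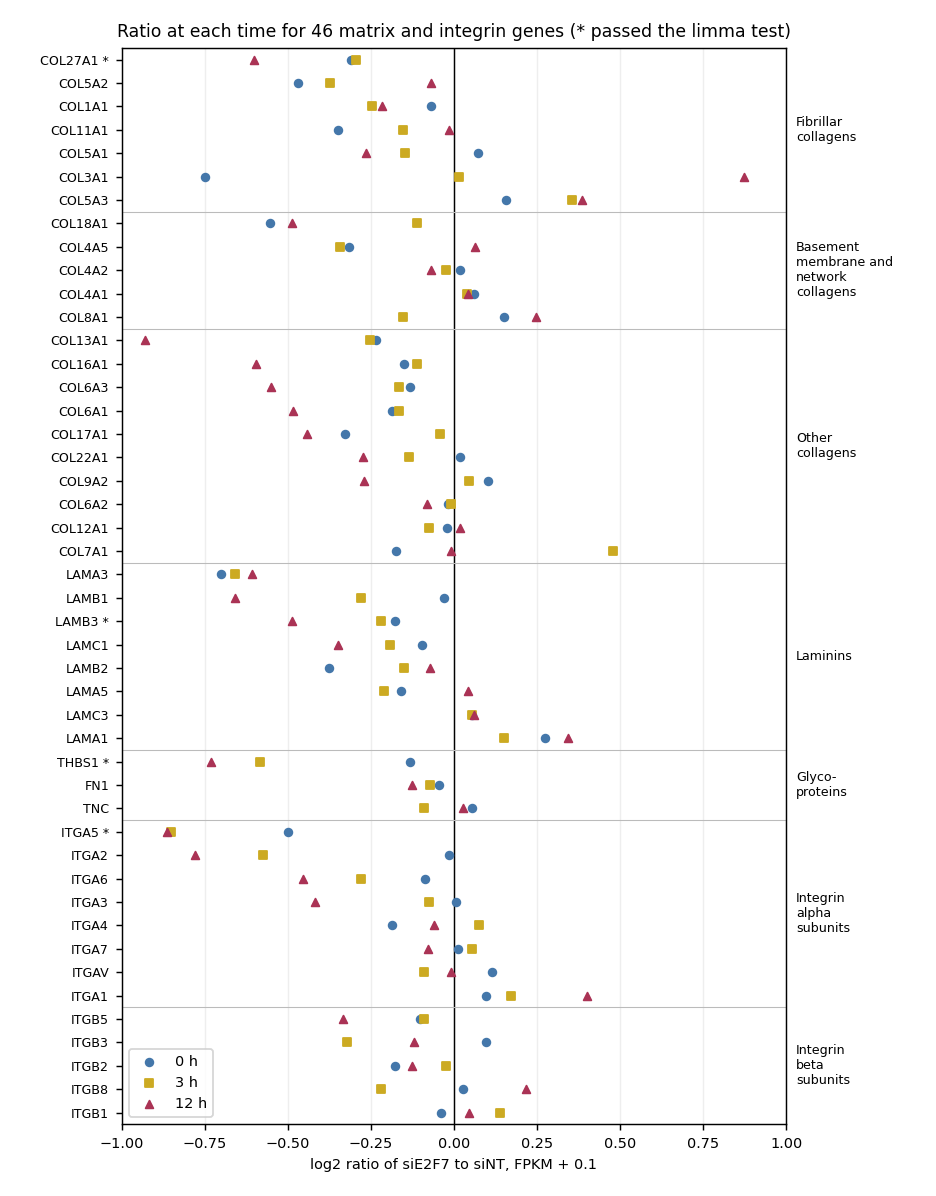
Log2 ratio of siE2F7 to siNT (FPKM + 0.1) on the x axis for 46 of the 47 genes, grouped by role, with a circle for 0 h, a square for 3 h and a triangle for 12 h, each from 1 library against 1. Most points lie left of 0, and 8 genes are at least 1.5-fold lower at 12 h, among them ITGA5 at -0.86 and COL13A1 at -0.93.

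The 4 genes that fell share no family, so the sequence around their transcription starts is shown for comparison. Each run gives 250 bases before and 10 from the start (RefSeq, GRCh38.p14), read 5′ to 3′ on the gene's strand: ITGA5 at chr12:54419257-54419516 (minus), THBS1 at chr15:39580829-39581088 (plus), LAMB3 at chr1:209652416-209652675 (minus) and COL27A1 at chr9:114155287-114155546 (plus). Capitals mark motif matches on either strand.
ITGA5: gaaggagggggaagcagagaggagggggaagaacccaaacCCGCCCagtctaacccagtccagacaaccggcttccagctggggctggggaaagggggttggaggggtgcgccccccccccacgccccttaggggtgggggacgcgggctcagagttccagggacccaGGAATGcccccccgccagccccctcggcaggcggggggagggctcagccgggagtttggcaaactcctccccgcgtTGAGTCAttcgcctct
THBS1: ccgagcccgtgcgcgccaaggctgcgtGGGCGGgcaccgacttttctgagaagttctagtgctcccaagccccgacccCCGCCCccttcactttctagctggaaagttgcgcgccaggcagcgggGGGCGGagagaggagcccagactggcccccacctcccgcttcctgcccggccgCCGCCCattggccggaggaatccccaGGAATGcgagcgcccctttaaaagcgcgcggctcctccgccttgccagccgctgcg
LAMB3: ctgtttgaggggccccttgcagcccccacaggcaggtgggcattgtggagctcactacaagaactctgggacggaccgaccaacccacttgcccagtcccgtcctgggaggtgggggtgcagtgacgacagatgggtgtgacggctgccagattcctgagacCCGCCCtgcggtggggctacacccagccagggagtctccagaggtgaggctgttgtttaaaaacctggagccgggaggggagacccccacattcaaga
COL27A1: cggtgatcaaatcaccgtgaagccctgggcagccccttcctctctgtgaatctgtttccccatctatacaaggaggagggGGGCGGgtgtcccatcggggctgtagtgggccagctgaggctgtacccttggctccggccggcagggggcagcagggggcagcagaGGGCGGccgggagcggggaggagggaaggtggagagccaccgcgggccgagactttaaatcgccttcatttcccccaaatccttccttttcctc

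Both strands were searched for known motifs. The E2F site was spelled TTTCCCGC, TTTGGCGC, TTTCGCGC or TTTGCCGC, the GC box bound by SP1 as GGGCGG, the AP-1 site as TGANTCA, the TEAD site as GGAATG and the TATA box as TATAAA; no match overlapped another in the 4 windows shown. Promoters matched 34 of the 47 genes by symbol, and 8266 of all genes tested. An E2F site lay in 1 of the 34 windows, that of COL5A3 (2.94%), in 4.86% of the windows of tested genes and in 2.91% of all 27305 windows. None of the 4 genes that fell had those letters in its window. A GC box lay in all 4 of them, in 26 of the 34 (76.5%) and in 69.2% of tested genes (42.8% of all windows). THBS1 had 4 such matches, COL27A1 had 2, and ITGA5 and LAMB3 had 1 each.

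The TEAD letters GGAATG lay 82 to 77 bases before the start of ITGA5 and 46 to 41 bases before that of THBS1, in 4 of the 34 windows in all (11.8%, beside 10.1% of tested genes and 12.5% of all windows). An AP-1 match, TGAGTCA, ran across the start of ITGA5, and LAMA3 had 2 such matches. They were the only 2 of the 34 with 1 (5.88%, beside 4.00% and 6.94%). A TATA box lay in 5 of the 34 (14.7%, beside 4.83% of tested genes and 11.3% of all windows), those of COL13A1, COL17A1, COL6A2, COL7A1 and ITGA6. A match is a stretch of letters and was not tested as a bound site.

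Levels of the 47 genes spanned 0.864 FPKM (LAMA3 in siE2F7 at 0 h) to 589 FPKM (ITGB1 in siE2F7 at 12 h). ITGB1, the beta subunit shared by most matrix-binding integrins, was the highest in every library, at 538, 535 and 571 FPKM in siNT and 524, 589 and 589 FPKM in siE2F7 at 0, 3 and 12 h. COL1A1, the main chain of bone collagen, followed at 261 to 376 FPKM, then FN1 at 181 to 225 FPKM and COL4A2, a basement membrane chain, at 116 to 122 FPKM. COL1A2, the other chain of type I collagen, was not among the 50 genes that the names matched. The 47 genes together took 0.59% to 0.671% of the summed FPKM of a siNT library and 0.565% to 0.599% of that of a siE2F7 library. In bulk RNA, fewer cells that express a gene and less RNA per cell cannot be told apart.

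**Figure D2:**
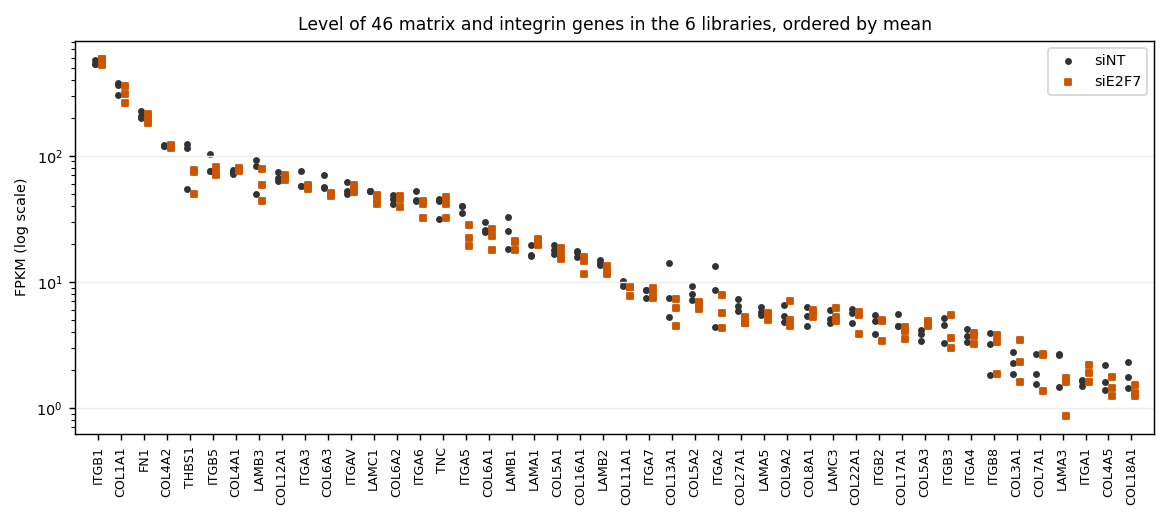
FPKM on a log axis for 46 of the 47 genes, ordered by mean, with 3 circles for the siNT libraries and 3 squares for the siE2F7 libraries. ITGB1 (524 to 589 FPKM) and COL1A1 (261 to 376 FPKM) stand highest, and the 2 arms of ITGA5 do not overlap.

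Among the alpha subunits of integrins, 1 of 8 fell (12.5%, beside 7.13% of all genes) and 0 rose by limma. At an unadjusted p under 0.05 by limma, 3 were lower (37.5%, beside 16.7%) and 0 were higher (beside 13.5%). The median log2 change was -0.11. ITGA5 (hg19, chromosome 12, 54789045 to 54813050) stood at 39.9, 40.1 and 35 FPKM in siNT and at 28.2, 22.2 and 19.2 FPKM in siE2F7 at 0, 3 and 12 h. Every siE2F7 value lay below every siNT value, and the gap was narrowest at 0 h. The log2 change was -0.74 ± 0.09 (SE, n = 3 pairs; limma, adjusted p = 0.0036), so that the level fell by 40.1%. ITGA5 passed in 12 of the 13 settings of the test that were run, all but the fit with no time block (adjusted p = 0.12). The subunit pairs only with ITGB1, whose log2 change was 0.05 (95% interval -0.13 to 0.23), and their ligand FN1 had -0.08 (-0.23 to 0.07). Neither interval reaches a change of the size seen in ITGA5.

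ITGA2 and ITGA6 were the other alpha subunits lower at all 3 times. ITGA2, of the collagen receptor alpha-2 beta-1, stood at 4.36, 8.54 and 13.5 FPKM in siNT and at 4.31, 5.70 and 7.80 FPKM in siE2F7. The arms were level at 0 h and parted afterwards, with log2 ratios of -0.01, -0.57 and -0.78. Over the 3 times its log2 change was -0.46 ± 0.15 (SE; limma, adjusted p = 0.083). It passed in 1 of 13 settings, without the libraries of 0 h (adjusted p = 0.017), the time at which the arms were level. ITGA6, of the laminin receptors, stood at 43.7, 52.8 and 44.3 FPKM in siNT and at 41.1, 43.5 and 32.3 FPKM in siE2F7, with no overlap of the arms and a log2 change of -0.27 ± 0.08 (adjusted p = 0.068). ITGA6 passed in 2 of 13 settings, without the libraries of 0 h (limma, adjusted p = 0.048) and with shared-locus genes left out (0.047).

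The remaining alpha subunits did not pass. ITGA3, a laminin receptor subunit, stood at 57.9, 57.5 and 75.6 FPKM in siNT and at 58.1, 54.5 and 56.5 FPKM in siE2F7, so the arms differed mainly at 12 h. ITGAV, which pairs with several beta subunits to bind vitronectin and fibronectin, had overlapping arms (49.4 to 62.4 and 51.8 to 58.6 FPKM) and a log2 change of 0.01, with a 95% interval of -0.16 to 0.17, whose sign turned after quantile normalization and without the libraries of 0 h. ITGA1 alone was higher at all 3 times, at 1.5, 1.67 and 1.63 FPKM in siNT and 1.61, 1.89 and 2.19 FPKM in siE2F7 (log2 change 0.22, adjusted p = 0.49). ITGA1 shares its locus with PELO, and reads of the overlap may have been split. ITGA4 and ITGA7 also share loci with other entries and had log2 changes of -0.06 and -0.003.

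Of the 5 beta subunits none passed by limma, and the median log2 change was -0.11. At an unadjusted p under 0.05 by limma, 1 was lower (20%, beside 16.7% of all genes) and 0 were higher (beside 13.5%). ITGB5, a partner of ITGAV, stood at 76.0, 76.2 and 103 FPKM in siNT and at 70.9, 71.6 and 81.4 FPKM in siE2F7. Its log2 change was -0.17 ± 0.07 (SE; limma, adjusted p = 0.16). ITGB3, also a partner of ITGAV, ranged from 3.24 to 5.12 FPKM in siNT and from 2.97 to 5.49 FPKM in siE2F7, and in both arms the 12 h library was the lowest. ITGB2, typical of white blood cells, stood at 3.40 to 5.40 FPKM over the 6 libraries, and ITGB8 at 1.81 to 3.90 FPKM.

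**Figure D3:**
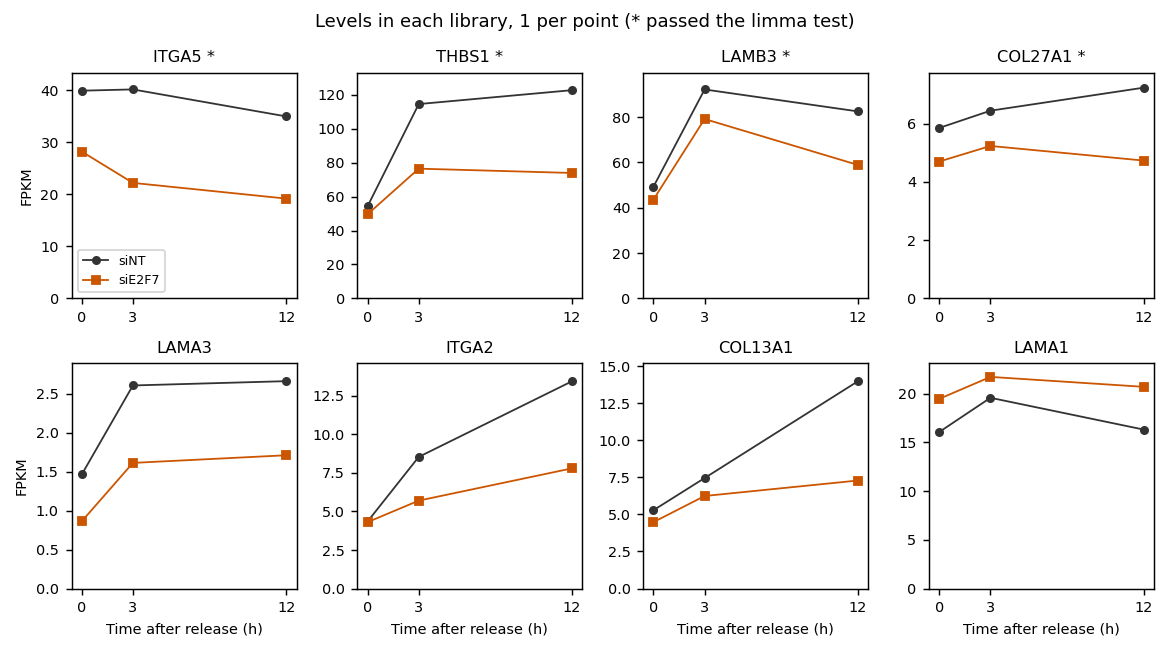
FPKM (y axis, from 0) against hours after release (x axis) for 8 genes, with circles for siNT and squares for siE2F7, 1 library per point and lines joining the libraries of an arm. ITGA5 is apart at every time, while ITGA2 and THBS1 start close together at 0 h and separate at 3 and 12 h; LAMA1 is higher in siE2F7 throughout.

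THBS1, FN1 and TNC are secreted glycoproteins that cells bind through integrins and other receptors. Of the 3, 1 fell (33.3%, beside 7.13% of all genes). THBS1 (hg19, chromosome 15, 39873280 to 39889668), which also inhibits vessel growth and activates TGF-beta, stood at 54.4, 115 and 123 FPKM in siNT and at 49.6, 76.5 and 73.9 FPKM in siE2F7. It was lower in siE2F7 at each time, though both arms at 0 h lay below all later values. The level at 12 h was 2.26 times that at 0 h in siNT and 1.49 times in siE2F7. The log2 change was -0.48 ± 0.11 (SE, n = 3 pairs; limma, adjusted p = 0.031). The call ended without the libraries of 3 h (adjusted p = 0.12) or 12 h (0.081), without the variance trend (0.095) or with no time block (0.72).

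FN1 and TNC were near the same level in both arms. FN1 stood at 206, 225 and 197 FPKM in siNT and at 200, 214 and 181 FPKM in siE2F7, slightly lower at each time but with overlapping arms. TNC stood at 45.6, 44.0 and 31.4 FPKM in siNT and at 47.4, 41.3 and 32.0 FPKM in siE2F7. Its log2 change was -0.003 with a 95% interval of -0.16 to 0.15, and its sign turned with median centring and without the libraries of 3 h.

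Of the 9 laminin chains, 1 fell (11.1%, beside 7.13% of all genes) and 0 rose by limma. At an unadjusted p under 0.05 by limma, 5 were lower (55.6%, beside 16.7%) and 1 was higher (11.1%, beside 13.5%). The median log2 change was -0.21. LAMB3 (hg19, chromosome 1, 209788218 to 209825820) stood at 49.3, 92.2 and 82.5 FPKM in siNT and at 43.6, 79.1 and 58.9 FPKM in siE2F7. It was lower in each pair, but the arms overlapped because both were lowest at 0 h. The log2 change was -0.29 ± 0.08 (SE, n = 3 pairs; adjusted p = 0.049), and the call ended when the libraries of any 1 time were left out (adjusted p = 0.071 to 0.23). LAMB3 passed in 6 of the 13 settings, and the call also ended with a pseudocount of 0.01 (adjusted p = 0.051), with genes listed at any time (0.060), with no time block (0.84) and without the variance trend (0.12).

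LAMB3 joins the alpha chain LAMA3 in laminin-332, and both were lower in siE2F7 at each time. LAMA3 stood at 1.47, 2.61 and 2.66 FPKM in siNT and at 0.864, 1.61 and 1.71 FPKM in siE2F7, far below LAMB3. Its log2 ratios of -0.70, -0.66 and -0.61 were alike at the 3 times, and the log2 change was -0.66 ± 0.19 (SE; limma, adjusted p = 0.062). It passed in 3 of 13 settings: a pseudocount of 1 (adjusted p = 0.0499), no variance trend (0.021) and shared-locus genes left out (0.032).

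Of the chains of laminin-111, none passed. LAMA1 was higher in siE2F7 at each time, at 16.1, 19.6 and 16.3 FPKM in siNT and 19.5, 21.7 and 20.7 FPKM in siE2F7. Its log2 change was 0.26 ± 0.07 (SE; limma, adjusted p = 0.061). It passed in 1 of 13 settings, with shared-locus genes left out (adjusted p = 0.047). LAMB1 stood at 18.1, 25.4 and 32.5 FPKM in siNT and at 17.7, 20.9 and 20.5 FPKM in siE2F7. Its log2 change was -0.32 ± 0.12 (limma, adjusted p = 0.11), and it passed in 1 of 13 settings, without the libraries of 0 h (0.045). LAMC1, the gamma chain of most laminins, was between 52.2 and 53.0 FPKM in siNT and at 48.9, 45.9 and 41.5 FPKM in siE2F7, with no overlap (log2 change -0.21, adjusted p = 0.095). Of the other chains LAMB2 had -0.20, LAMA5 -0.11 and LAMC3 0.06, none of which passed.

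Of 7 fibrillar collagens, 1 fell (14.3%, beside 7.13% of all genes) and 0 rose by limma. At an unadjusted p under 0.05 by limma, 3 were lower (42.9%, beside 16.7%) and 1 was higher (14.3%, beside 13.5%). The median log2 change was -0.17. COL27A1 (hg19, chromosome 9, 116918231 to 117072975) stood at 5.86, 6.45 and 7.24 FPKM in siNT and at 4.70, 5.24 and 4.73 FPKM in siE2F7. The arms did not overlap, and the log2 change was -0.40 ± 0.11 (SE, n = 3 pairs; adjusted p = 0.049). The call lay at the threshold: it held in 4 of the 13 settings and ended with a pseudocount of 0.01, without the variance trend (adjusted p = 0.071), with no time block (0.43), with genes listed at any time (0.055), with median centring (0.051), after quantile normalization (0.063) and when the libraries of any 1 time were left out (0.096 to 0.19).

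COL1A1 stood at 376, 363 and 304 FPKM in siNT and at 358, 306 and 261 FPKM in siE2F7. It was lower in siE2F7 at each time and lower at 12 h than at 0 h in both arms, and its log2 change was -0.18 ± 0.07 (SE; limma, adjusted p = 0.15). Type V collagen controls the width of type I fibrils, and its 3 chains differed in their values. COL5A2 stood at 9.34, 7.93 and 7.23 FPKM in siNT and at 6.72, 6.11 and 6.90 FPKM in siE2F7. Its log2 change was -0.30 (limma, adjusted p = 0.10), and it passed in 1 of 13 settings, without the libraries of 12 h (0.046). COL5A3 was higher in siE2F7 at each time, at 4.18, 3.82 and 3.37 FPKM in siNT and 4.67, 4.92 and 4.44 FPKM in siE2F7, with a log2 change of 0.30 (adjusted p = 0.13). COL5A1 had overlapping arms, with 16.7 to 19.5 and 15.1 to 18.7 FPKM.

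COL11A1, a cartilage collagen, had a log2 change of -0.17 (adjusted p = 0.26). COL3A1, a collagen of soft tissues, stood at 2.76, 2.27 and 1.85 FPKM in siNT and at 1.60, 2.30 and 3.47 FPKM in siE2F7, so that its ratio went from the lowest of all 47 genes at 0 h to the highest at 12 h.

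None of the 5 basement membrane and network collagens passed by limma, and their median log2 change was -0.02. At an unadjusted p under 0.05 by limma, 0 were lower and 0 higher, beside 16.7% and 13.5% of all genes. COL4A1 and COL4A2 form the common collagen IV trimer and lie head to head on chromosome 13. COL4A1 stood at 72.1, 74.6 and 77.6 FPKM in siNT and at 75.3, 76.7 and 79.9 FPKM in siE2F7, a log2 change of 0.05 with a 95% interval of -0.10 to 0.19. COL4A2 stood at 120, 119 and 122 FPKM in siNT and at 121, 117 and 116 FPKM in siE2F7, a log2 change of -0.02 with a 95% interval of -0.17 to 0.12. Both were level across arms and times. COL18A1, the source of endostatin, was at 1.23 to 2.29 FPKM, and its log2 change of -0.38 ± 0.22 (SE) had an adjusted p of 0.28. COL4A5, a chain of another collagen IV trimer, stood at 1.24 to 2.21 FPKM over the 6 libraries, and COL8A1, of the vessel wall, at 4.45 to 6.25 FPKM, with log2 changes of -0.20 and 0.08.

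The remaining 10 collagens, which form beaded filaments, anchor or decorate fibrils or span the membrane, also held no gene that passed by limma. At an unadjusted p under 0.05 by limma, 4 were lower (40%, beside 16.7% of all genes) and 0 were higher (beside 13.5%). The median log2 change was -0.20. COL13A1, a transmembrane collagen of cell adhesions, stood at 5.28, 7.45 and 14 FPKM in siNT and at 4.48, 6.24 and 7.29 FPKM in siE2F7. The gap was widest at 12 h (log2 ratio -0.93), and the log2 change was -0.47 ± 0.15 (SE; adjusted p = 0.075), with a call only with shared-locus genes left out (adjusted p = 0.049). COL6A3, a chain of the beaded filaments around cells, stood at 55.2, 56.0 and 70.1 FPKM in siNT. In siE2F7 it stood at 50.3, 50.0 and 47.8 FPKM, with no overlap and a log2 change of -0.28 ± 0.09 (limma, adjusted p = 0.086). It passed in 1 of 13 settings, after quantile normalization (adjusted p = 0.049).

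The other 2 chains of collagen VI had different values. COL6A1 had a log2 change of -0.28 (limma, adjusted p = 0.069) and passed in 1 of 13 settings, with shared-locus genes left out (0.049). COL6A2 had -0.04, with 41.7 to 48.7 FPKM in siNT and 39.4 to 48.1 FPKM in siE2F7. COL16A1, a fibril-associated collagen, stood at 17.4, 15.8 and 17.4 FPKM in siNT and at 15.6, 14.6 and 11.5 FPKM in siE2F7, without overlap (log2 change -0.29, adjusted p = 0.12). COL12A1, also fibril-associated and at 63.0 to 74.0 FPKM the most abundant of these, had a log2 change of -0.03 with a 95% interval of -0.17 to 0.12. COL17A1, a transmembrane collagen of hemidesmosomes, stood at 4.48, 4.49 and 5.56 FPKM in siNT and at 3.54, 4.36 and 4.06 FPKM in siE2F7, without overlap (log2 change -0.27, adjusted p = 0.19). COL7A1, of the anchoring fibrils of skin, COL9A2, of cartilage, and COL22A1, of tissue junctions, had overlapping arms and log2 changes of 0.10, -0.04 and -0.13.

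At single times, where 1 library stood against 1 and no test was possible, the larger differences were mostly those of 12 h. At least 1.5-fold lower in siE2F7 were 2 genes at 0 h (LAMA3 and COL3A1; 4.26%, beside 4.40% of all genes), 2 at 3 h (ITGA5 and LAMA3; 4.26%, beside 3.90%) and 8 at 12 h (17.0%, beside 6.58%). The 8 were COL13A1, ITGA5, ITGA2, THBS1, LAMB1, LAMA3, COL27A1 and COL16A1. At least 1.5-fold higher were 0 genes at 0 h (beside 2.70%), 0 at 3 h (beside 3.90%) and 1 at 12 h, COL3A1 (beside 5.07%). The count of 8 became 5 with a pseudocount of 1, after quantile normalization or with median centring. The summed level of the 8 alpha subunits in siE2F7 was 0.95, 0.847 and 0.774 times that in siNT at 0, 3 and 12 h, and that of the 9 laminins 0.936, 0.886 and 0.782 times. For the 5 basement membrane and network collagens the ratios were 1.02, 0.995 and 0.985. Over all genes tested they were 0.967, 1.051 and 0.974, so the ratios of the alpha subunits and laminins at 0 h were near that background. At 12 h the ratio was 0.870 for the fibrillar collagens, 0.813 for the remaining collagens, 0.816 for the glycoproteins and 0.995 for the beta subunits. Such sums follow the highest genes. In siNT at 12 h, ITGB1 gave 571 of the 686 FPKM of the beta subunits. COL1A1 gave 304 of the 352 FPKM of the fibrillar collagens. The median log2 ratio at 12 h was -0.12 for the beta subunits and -0.07 for the fibrillar collagens.

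Genes that make, cross-link, cut and bind the matrix were counted in the same fit. Of 28 tested genes of collagen synthesis and crosslinking, 5 fell and 0 rose, with a median log2 change of -0.10. The 5 are 17.9% of the list, beside 7.13% of all genes tested that fell, and the all-gene median was -0.03. SERPINH1, the collagen chaperone HSP47, fell by 0.35 on the log2 scale, with 196, 176 and 176 FPKM in siNT beside 159, 153 and 121 FPKM in siE2F7 (limma, adjusted p = 0.032). P4HA1, a subunit of prolyl 4-hydroxylase, fell by 0.41 (adjusted p = 0.010), PLOD3, a lysyl hydroxylase, by 0.31 (0.043), LOXL4, a lysyl oxidase, by 0.37 (0.013) and PCOLCE2, an enhancer of procollagen cleavage, by 0.61 (0.025). Of these, P4HA1 was the only call kept when each time was left out in turn.

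A list of 26 other matrix proteins also held FBLIM1, an adaptor inside the cell, and SPP1, counted among the osteoblast markers too. Neither passed. Of the 26, 3 fell (11.5%, beside 7.13% of all genes) and 0 rose (median log2 change -0.14). Those that fell were the cartilage matrilin MATN3 (-0.72 ± 0.15, SE), the adhesive growth regulator CTGF (-0.40 ± 0.09) and LTBP2, of the microfibrils (-0.35 ± 0.09). Of 25 matrix proteases and inhibitors, 4 fell (16%, beside 7.13%) and 0 rose (median -0.13). TIMP2, which inhibits matrix metalloproteinases and also takes part in activating MMP2, stood at 87.5, 85.6 and 83.5 FPKM in siNT and at 54.6, 61.1 and 51.1 FPKM in siE2F7, a log2 change of -0.62 ± 0.07 (SE; limma, adjusted p = 0.0029). MMP2, the gelatinase, fell by 0.37 on the log2 scale, as did the urokinase PLAU, and the plasminogen activator PLAT by 0.39. Of these 7 genes, TIMP2 was the only call kept when each time was left out in turn.

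The integrin adhesion complex, which ties integrins to actin, had calls in both directions: of 38 tested genes 4 rose and 4 fell, with a median log2 change of -0.07. Each count is 10.5% of the list, beside 6.76% of all genes that rose and 7.13% that fell. ILK, LIMS1 and PARVA encode the kinase-like ILK, PINCH1 and alpha-parvin, which form 1 complex at the integrin tail. ILK stood at 48.6, 39.4 and 55.0 FPKM in siNT and at 38.7, 32.6 and 39.2 FPKM in siE2F7 (-0.36 ± 0.07, SE), while LIMS1 rose by 0.31 ± 0.06 and PARVA by 0.31 ± 0.07 (limma, adjusted p = 0.017, 0.021 and 0.031). KANK2, an adaptor of talin, rose by 0.67 ± 0.08, from 16.7, 10.6 and 7.59 FPKM to 24.8, 17.4 and 12.8 FPKM (adjusted p = 0.0029). TNS1, a tensin, fell by 0.46 on the log2 scale, and ZYX, a stress fibre protein, by 0.44. The other 2 calls were PARVB, beta-parvin (-0.26), and FERMT2, kindlin-2 (0.25), named after their values were seen. Calls of KANK2 and ZYX were kept when each time was left out in turn, and those of LIMS1, PARVA, PARVB and FERMT2 ended when any 1 time was. The call of ILK ended without the libraries of 12 h and that of TNS1 without those of 3 h. Every call of this list ended with no time block, and without the variance trend only those of KANK2 and TNS1 held.

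Among 16 other matrix receptors and tetraspanins 2 fell (12.5%, beside 7.13% of all genes) and 0 rose, the tetraspanin CD82 (-0.40 ± 0.07, SE) and the hyaluronan receptor CD44 (-0.30 ± 0.08), with a median log2 change of -0.08. Of 14 genes of TGF-beta signalling, which drives matrix production in many cells, 1 fell (7.14%, at the background of 7.13%) and 0 rose (median -0.03). It was the receptor TGFBR2, at 25.6, 35.5 and 35.8 FPKM in siNT and 20.5, 25.9 and 19.4 FPKM in siE2F7 (-0.55 ± 0.11; limma, adjusted p = 0.018), a call that ended without the libraries of 3 h, as did that of CD82. The call of CD44 ended when any 1 time was left out.

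**Figure D4:**
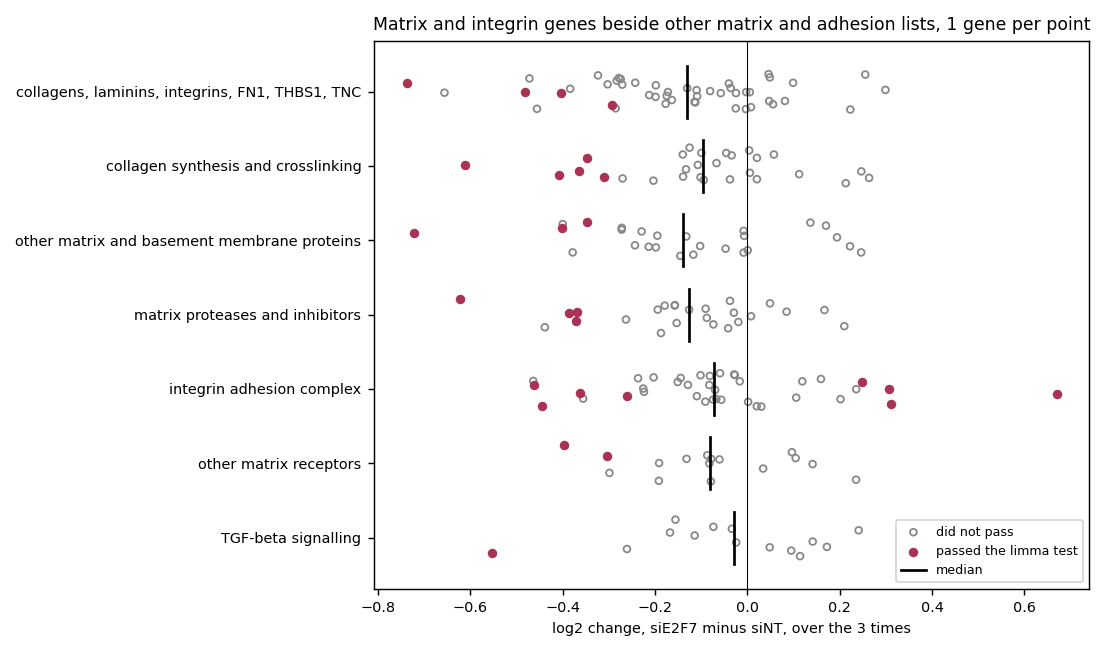
Log2 change of siE2F7 against siNT over the 3 times (x axis) for the 47 genes and for 6 related lists, 1 gene per point, with filled points for genes that passed the limma test and a bar at each median. Filled points lie left of 0 in every list except the integrin adhesion complex, where 4 lie on each side.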

How the data were processed

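Per the file headers, the deposited values are FPKM per gene, 1 table per library. Per the submitters' processing notes, CASAVA 1.8 and the hg19 (GRCh37) build were used; aligner, annotation, filters and any scaling across times were not given in the sources used here. Tables were joined by gene identifier, and start positions are counted from 1. Values of siE2F7 and siNT, as log2(FPKM + 0.1), were compared by limma 3.58.1 (R 4.3.3), blocked by time and with a variance trend, over 11886 genes (2 residual and 5.41 prior degrees of freedom), after a check on simulated data. The 95% intervals are those of that fit and are not adjusted. Levels across times carry no test.

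The genes, the role lists and the motifs were chosen with earlier results of these data known. Named by rule were genes that passed and, per role, the 3 highest in level and the 2 largest changes; further members are named to describe the set. The values of 1 of the 47 genes are not reported here, but counts and medians include it. In the related lists, up to 3 genes that passed are named at each end. Alternatives were other pseudocounts (1 and 0.01), a mean of at least 1 FPKM, quantile normalization, median centring, no variance trend, no time block, no genes that share a locus, genes listed at any time, and each time left out.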

Additional observations from a re-analysis of the deposited data

Results flagged for a closer look

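COL3A1 went in opposite directions at 2 times, by at least 1.5-fold each way: its log2 ratio of siE2F7 to siNT was -0.75 at 0 h and 0.87 at 12 h. The difference between the times was not tested, since each ratio sets 1 library against 1. The levels behind it were low, at 1.60 to 3.47 FPKM.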

How the results depend on the processing

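Of the 47 genes, 4 passed in the fit described, all lower (8.51%, beside 13.9% of all genes that passed in either direction). The count was 2 (4.26%) with a pseudocount of 0.01, without the variance trend and with genes listed at any time. The shares of all genes in these settings were 13.5%, 7.17% and 11.5%. With no time block it was 0, where 32 of all genes passed. Without genes that share a locus, 42 of the 47 were tested and 9 passed, 8 lower and 1 higher (LAMA1); that is 21.4% of them, beside 17.6% of all genes in the same setting. Leaving out 0, 3 or 12 h gave 5, 1 and 2 genes, all lower. These are 10.6%, 2.13% and 4.26% of the 47, beside 9.21%, 6.42% and 9.33% of all genes. The median log2 change was -0.10 after quantile normalization, -0.17 with shared-locus genes left out, and -0.13 in the fit described. Only ITGA5 was called in 12 of 13 settings; 13 genes were called in at least 1. Signs turned for genes near 0: ITGAV had a log2 change of -0.0134 after quantile normalization and TNC of 0.0150 with median centring, and with each time left out in turn COL8A1 ranged from -0.00114 to 0.198, ITGAV from -0.0494 to 0.0530 and TNC from -0.0310 to 0.0408. For the named genes of related lists, no call held with no time block. Without the variance trend only those of P4HA1, TIMP2, TNS1, KANK2 and CD82 held. Counts at single times under other scales, and the alternatives for genes of related lists, were added after seeing the data. The cause of these differences was not tested. Depth is unknown, so counting error could not be given for low genes such as LAMA3. No paired analysis was possible by replicate number because the labels give none; the pairs share only a time.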

Other observations

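The 3 genes listed at some times only were not in the fit described. They entered only the setting with genes listed at any time. COL4A4, a kidney-type collagen IV chain, stood at 2.04 and 1.98 FPKM in siNT and at 2.18 and 1.68 FPKM in siE2F7 at 0 and 3 h. ITGB4, the partner of ITGA6 in hemidesmosomes, stood at 2.23 and 1.37 FPKM in siNT and at 2.54 and 1.82 FPKM in siE2F7 at the same times. LAMA2, the laminin chain of muscle, was listed at 0 h alone, at 1.59 FPKM in siNT and 1.03 FPKM in siE2F7.

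Values of some genes also differed between times. In siNT, levels at 12 h were 3.09 times those at 0 h for ITGA2, 2.65 for COL13A1, 1.82 for LAMA3 and 1.79 for LAMB1; in siE2F7 the ratios were 1.81, 1.63, 1.98 and 1.16. TNC and ITGB3 were lower at 12 h than at 0 h in both arms, with ratios of 0.689 and 0.633 in siNT and 0.676 and 0.542 in siE2F7. Whether the tables of different times share a scale is not stated, and these ratios have no test.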
